A study of Mus musculus with 2 samples.

Results

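The 10 genes examined here, *Lpl*, *Olr1*, *Cd36*, *Vldlr*, *Fabp3*, *Fabp4*, *Fabp5*, *Plin2*, *Angptl4* and *Gpihbp1*, take up lipoproteins and fatty acids or handle the fat that has been taken up. They were chosen by gene symbol, with the values of *Lpl* and *Olr1* in view, from the 55471 genes of a bulk RNA-Seq table of Pdpn+ kidney cells. Each symbol stood on 1 gene ID. The choice used the same comparison that is described below, so the values of the members are a description and none is a test.

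Triglyceride travels in blood inside lipoproteins. Lipoprotein lipase, which *Lpl* encodes, cuts it into fatty acids at the capillary wall, where the endothelial protein GPIHBP1 holds the enzyme and the secreted protein ANGPTL4 inhibits it. Whole or remnant lipoproteins enter cells through receptors such as that of *Vldlr*, modified ones through scavenger receptors such as those of *Cd36* and *Olr1*, and fatty acids are then bound by FABP proteins or stored in droplets coated by perilipins.

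Pdpn+ cells were isolated from kidneys of male C57BL/6J mice. The design text gives the sort as EpCAM-CD45-Nephrin-Pdpn+, while the sample labels mention only selection with an antibody to PDPN. The Ctrl mice carried *Hoxb7-Cre-GFP*, and the VhlhKO mice carried *Hoxb7-Cre-GFP* with *Vhlh* loxP/loxP, so both genotypes carry the Cre transgene. The *Hoxb7* promoter drives Cre in tubule epithelium, which the sort was meant to leave out. *Hoxb7* itself had 2008 counts in VhlhKO and 1754 in Ctrl, so whether Cre acted in the sorted cells cannot be read from these data. The description of the Ctrl sample names *Vhlh* loxP/loxP in place of the transgene, and the table itself names the transgene for Ctrl. The sources differ on age, with 12 weeks among the sample characteristics, 8 to 12 weeks in the protocol and 10 to 12 weeks in the design text. Each library came from cells of several pooled mice, kept in endothelial medium for some hours before RNA extraction. There was 1 library per genotype, so no spread between mice or pools is known and no p-value can be given.

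The VhlhKO library totalled 34465017 counts and the Ctrl library 31817115. Levels are given as CPM, counts relative to the library total after scaling by the trimmed mean of M-values (TMM). Ratios are VhlhKO over Ctrl, and the range after a ratio is its 95% Clopper-Pearson interval. This interval covers counting error only, and it can be too narrow even for that, since PCR copies are not independent molecules. The log2 ratio was taken after adding 0.5 CPM to both sides, and a gene was counted as different where it reached 2-fold on that scale with 20 or more counts in either library. Lymphatic markers were uneven in level. With VhlhKO named first, *Pdpn* reached 67.3 and 57.5 CPM, *Flt4* had 898 and 710 counts, *Lyve1* had 128 and 10, *Prox1* had 142 and 144 counts, *Cdh5* had 105 and 95, and *Mmrn1* and *Ccl21a* had none. Of the genes that the design text names as gated out, *Epcam* had 155 and 69 counts, *Nphs1* had 44 and 77, and *Ptprc* had 24 and 12. *Vhl* had 975 and 938 counts, which does not show whether it was deleted in any of these cells.

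*Olr1* had the largest ratio of the 10 genes. It encodes LOX-1, a lectin-like receptor for oxidized low-density lipoprotein, and lies on the minus strand of chromosome 6 between 129485244 and 129507165 (GRCm38, as for all positions). The Ctrl library contained 27 *Olr1* counts and the VhlhKO library 296, or 0.846 CPM against 8.62 CPM. The count ratio was 10.2 (6.86 to 15.7). In bulk samples a higher level can come from more cells of a type or from more RNA per cell, and these cannot be told apart. Its log2 ratio of 2.76 ranked 5 among the 15275 genes with enough counts. The size of this difference depends on the added amount more than that of *Lpl* does, and with 5 CPM added the log2 ratio of *Olr1* was 1.22.

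*Lpl* had the next largest ratio and far more counts. It lies on the plus strand of chromosome 8 from 68880491 to 68907448. The VhlhKO library held 1654 *Lpl* counts and the Ctrl library 261, which is 48.1 CPM against 8.18 CPM. The count ratio was 5.89 (5.16 to 6.74), and the log2 ratio of 2.49 ranked 8. Between the 2 libraries *Lpl* also changed its place among all genes. In Ctrl 13099 genes had a higher TPM, the authors' measure per gene length, and in VhlhKO 7992 did.

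The genes closest to *Lpl* and *Olr1* in log2 ratio were of other kinds. Just above *Lpl* stood *Srp54b* (2.65), a signal recognition particle subunit, and *Igfbp3* (2.57), which encodes a carrier of insulin-like growth factors, and just below it *Prl2c2* (2.47) and the chloride channel family gene *Clic5* (2.41). Just above *Olr1* stood the small heat shock protein gene *Hspb7* (2.83) and *Gm42031* (2.83), and below it again *Srp54b* and *Igfbp3*. Likeness here is only the difference in log2 ratio over 2 libraries, at most 0.19.

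**Figure D1:**
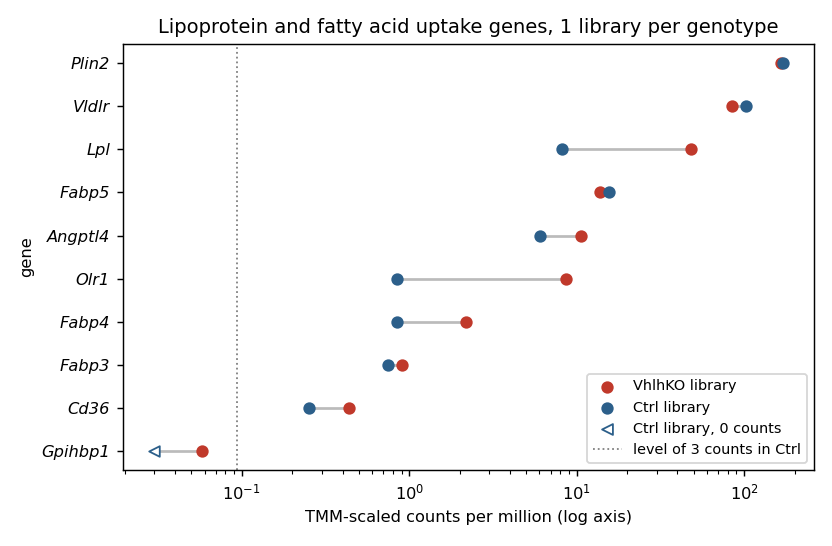
Level of each of the 10 genes in the VhlhKO library (red) and the Ctrl library (blue), in TMM-scaled CPM on a log axis, with a dotted line at the level of 3 counts in Ctrl. The pairs of *Lpl* and *Olr1* lie far apart, those of *Plin2*, *Vldlr* and *Fabp5* nearly coincide, and *Gpihbp1* lies below the line in both libraries, with no counts in Ctrl (open triangle, drawn at an arbitrary place).

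The other genes of the lipolysis step were at low or moderate levels. *Angptl4*, the lipase inhibitor, which is also induced by fasting and low oxygen in many tissues, lies on chromosome 17 from 33773750 to 33781830. Counts were 366 for VhlhKO against 193 for Ctrl, which is 10.7 CPM against 6.05 CPM. The ratio was 1.76 (1.48 to 2.11), short of 2-fold. The *Angptl4* transcript was thus higher than in Ctrl by less than the *Lpl* transcript was. *Angptl4* over *Lpl* in TPM went from 2.19 in Ctrl to 0.655 in VhlhKO. Neither protein level nor lipase activity can be read from these transcript values. Which of the 2 genes is higher in Ctrl depends on the gene lengths used, as given below.

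*Gpihbp1*, the capillary anchor of the enzyme, lies on chromosome 15 from 75596628 to 75599481. The VhlhKO library held 2 counts of it and the Ctrl library 0. A count of 0 allows up to 3 counts, which is 0.094 CPM in Ctrl, and both libraries lay under that level, so no fold is given. Its transcript was not detectable above that level in libraries that held 1654 and 261 *Lpl* counts. Capillary and pan-endothelial markers were uneven in level, and the 15 listed summed to 110 CPM in VhlhKO and 106 CPM in Ctrl. *Flt1* was the most abundant of that list, with 2171 and 2195 counts. *Ehd3* had 751 and 534, *Kdr* 211 and 194, *Emcn* 176 and 88 and *Pecam1* 66 and 55. *Tie1*, *Tek*, *Cldn5*, *Robo4*, *Meox2* and *Tcf15* had fewer than 20 counts in both libraries.

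Of the remaining receptors *Vldlr* was slightly lower in VhlhKO and *Cd36* had too few counts to read. *Vldlr*, a receptor for triglyceride-rich lipoproteins that also binds reelin, lies on chromosome 19 from 27216484 to 27254231. The VhlhKO library held 2919 counts against 3289, or 85.0 CPM against 103 CPM. Its ratio of 0.825 (0.784 to 0.867) was the lowest of the 10 genes. *Cd36*, a scavenger receptor and fatty acid translocase, lies on chromosome 5 from 17781690 to 17888801. Only 15 counts were seen for VhlhKO and 8 for Ctrl, under the minimum of 20, with a ratio of 1.74 whose interval of 0.693 to 4.74 includes 1. At this depth neither a difference nor its absence can be read for *Cd36*.

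The 3 fatty acid binding protein genes had unlike values. *Fabp4*, the form of adipocytes, macrophages and capillary endothelium, lies on chromosome 3 from 10204088 to 10208576. Its 75 counts for VhlhKO and 27 for Ctrl are 2.18 CPM against 0.846 CPM, with a ratio of 2.58 (1.64 to 4.17). With 0.5 CPM added its log2 ratio was 0.995, which put it at rank 262, directly after the 261 genes that reached 2-fold. *Lpl*, the lowest of the 10 genes inside the rule, was at 2.49, so *Fabp4* is the only one close to the limit.

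*Fabp5*, the epidermal form, which many cell types express, lies on the same chromosome from 10012548 to 10016607. Its 471 counts for VhlhKO and 498 for Ctrl are 13.7 CPM against 15.6 CPM, with a ratio of 0.879 (0.773 to 0.999). *Fabp3*, the form of heart and muscle, lies on chromosome 4 from 130308595 to 130315463 and had 31 and 24 counts, with a ratio of 1.20 (0.682 to 2.14). The authors' TPM placed 79.9% of the summed level of the 3 genes on *Fabp5* in Ctrl and 70.8% in VhlhKO. *Fabp3* is the least certain of the 10 genes in its counting. In GENCODE M21, 21.7% of its 100-base stretches also occur in the pseudogene *Fabp3-ps1*, and its exons overlap those of *Zcchc17* on the opposite strand. *Zcchc17* had 609 and 615 counts and *Fabp3-ps1* had 2 and 1, and the strand setting of the counting is not given in the sources used here. For *Fabp5* the share was 2.19% and for the other genes at most 0.347%.

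*Plin2*, the coat protein of lipid droplets in most cells, was the most abundant of the 10 genes and the closest to equal. It lies on chromosome 4 from 86648386 to 86670060. Both libraries were at nearly the same level, with 5716 counts for VhlhKO and 5450 for Ctrl, or 166 CPM against 171 CPM, and a ratio of 0.974 (0.939 to 1.01). In TPM it made up 72.4% of the summed level of the 10 genes in Ctrl and 66.4% in VhlhKO.

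**Figure D2:**
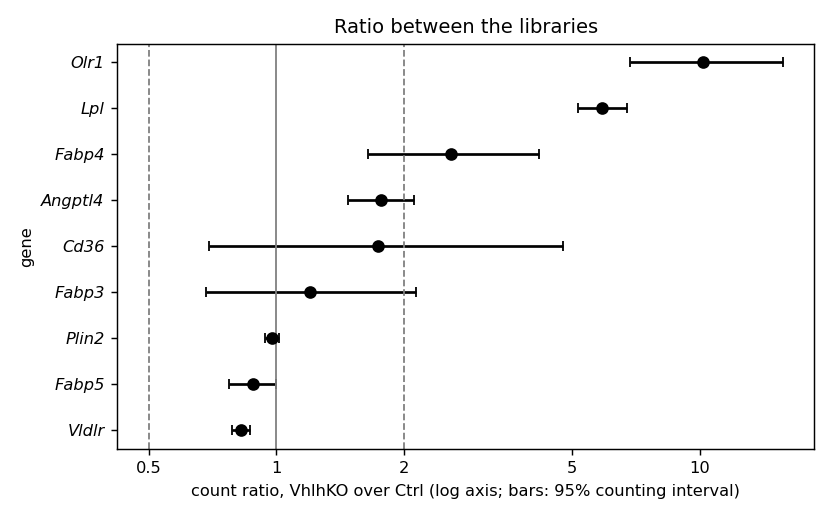
Count ratio of VhlhKO over Ctrl for 9 of the genes on a log axis, with 95% counting intervals as bars, a line at 1 and dashed lines at 2-fold either way. *Olr1* and *Lpl* lie above 5 with intervals clear of 2-fold, *Fabp4* and *Angptl4* have intervals that cross 2-fold and stay above 1, and *Plin2* is at 0.974; *Gpihbp1* is left out because Ctrl had no counts.

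Of the 10 genes, 8 had at least 20 counts in a library, and *Cd36* and *Gpihbp1* did not. *Lpl* and *Olr1* were at least 2-fold higher in VhlhKO, against 1.71% of all 15275 genes, and none was at least 2-fold lower, against 0.524%; 2.23% of all genes were past 2-fold either way. As *Lpl* and *Olr1* were known to be higher when the genes were chosen, nothing can be read from that count. The counting interval lay above 1 for *Lpl*, *Olr1*, *Fabp4* and *Angptl4* and below 1 for *Vldlr* and *Fabp5*. Over all genes it lay above 1 for 19.0% and below 1 for 17.3%, so an interval clear of 1 is common in these libraries. The median log2 ratio of the 8 genes was 0.47, with a range of -0.28 to 2.76, and the median of all genes was -0.0007. The median of the 8 includes *Lpl* and *Olr1*, so no shift of the set can be read from it either. Without *Lpl* and *Olr1* the range was -0.28 to 0.995.

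**Figure D3:**
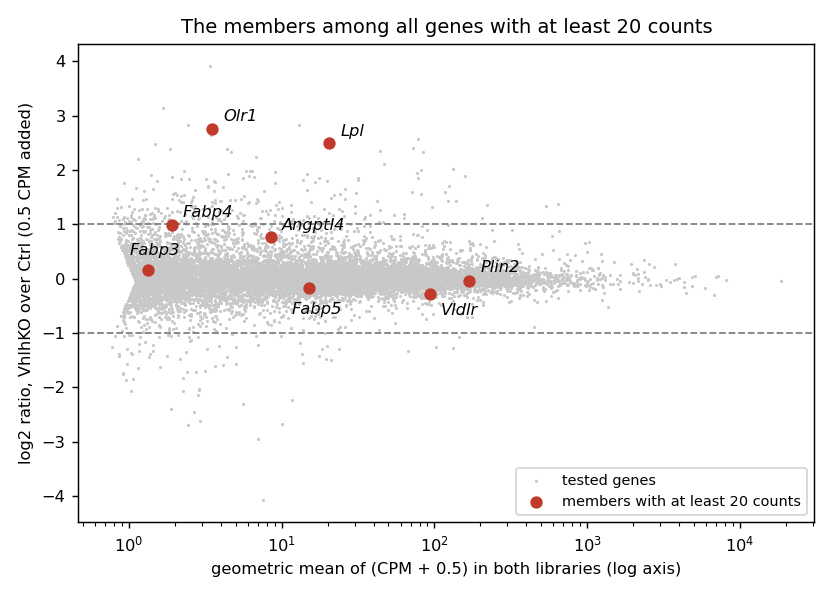
Log2 ratio of VhlhKO over Ctrl with 0.5 CPM added, against the geometric mean level in both libraries on a log axis, for all 15275 genes with at least 20 counts (grey) and for 8 of the 10 members (red). Dashed lines mark 2-fold either way; *Lpl* and *Olr1* lie at the upper edge of the cloud, *Fabp4* lies on the line at 0.995, and *Plin2*, *Vldlr* and *Fabp5* lie inside the cloud.

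The order of the genes by level was read from TPM, which is per length. In Ctrl it ran *Plin2* (174 TPM), *Vldlr* (36.7), *Fabp5* (15.7), *Angptl4* (6.13), *Fabp3* (3.28), *Lpl* (2.80), *Olr1* (0.850), *Fabp4* (0.676), *Cd36* (0.251) and *Gpihbp1* (0). In VhlhKO *Lpl* moved from place 6 to place 3 at 16.4 TPM, between *Vldlr* (30.2) and *Fabp5* (13.7), and *Olr1* from place 7 to place 6 at 8.62 TPM. With 1 library each, no neighbours in this order can be separated by a spread.

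The order also depends on gene length. The lengths behind the TPM, recovered from counts over TPM, equalled the merged exon lengths of GENCODE M21 for all 10 genes. A merged length sums the exons of every listed transcript and is 2.55 times the principal transcript for *Lpl* (10478 and 4115 bases), 5.01 times for *Fabp4* and 3.61 times for *Fabp5*. Per kilobase of the principal transcript, an alternative chosen after seeing the data, *Lpl* stood at place 3 in VhlhKO and place 4 in Ctrl. In Ctrl *Angptl4* was then at 1.83 CPM per kilobase and *Lpl* at 1.99, so *Angptl4* was above *Lpl* there in TPM only. In VhlhKO they were at 3.22 and 11.7. *Fabp4* then stood at 2.44 CPM per kilobase in VhlhKO, next to *Olr1* at 2.41, so the order of these genes is not firm. Ratios between the libraries do not depend on length.

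Promoter sequence is shown for *Olr1*, with the largest ratio, and *Plin2*, with the highest level, as the 250 bases before the RefSeq start site (GRCm38.p6). Capitals mark any match to ACGTG or GCGTG, core letters of the hypoxia response element, or to the PPAR response element (AGGTCA, any base, AGGTCA), searched on both strands. The *Olr1* window is on the minus strand at chr6:129507166-129507415 and the *Plin2* window on the minus strand at chr4:86670060-86670309.
Olr1: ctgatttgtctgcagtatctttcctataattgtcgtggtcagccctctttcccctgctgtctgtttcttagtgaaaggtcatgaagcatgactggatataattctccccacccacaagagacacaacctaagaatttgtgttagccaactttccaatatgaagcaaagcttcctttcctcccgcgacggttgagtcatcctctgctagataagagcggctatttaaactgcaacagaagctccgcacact
Plin2: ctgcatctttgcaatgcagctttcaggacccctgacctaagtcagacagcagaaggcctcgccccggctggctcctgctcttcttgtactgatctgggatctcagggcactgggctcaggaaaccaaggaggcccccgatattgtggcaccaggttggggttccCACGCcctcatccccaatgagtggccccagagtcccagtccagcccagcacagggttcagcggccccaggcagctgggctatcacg
*Plin2* had a match to GCGTG on the opposite strand, 86 to 82 bases before the start, and *Olr1* had none. Such windows exist for *Plin2*, *Fabp3*, *Cd36*, *Olr1* and *Vldlr* (2 windows), and no other match was found in them. Of 32851 windows in all, 16.6% hold ACGTG, 28.2% hold GCGTG and 0.0335% hold the PPAR element. A match is not a site, and its absence says only that these letters are not in the window. The promoters of the other 5 genes were not analysed here.

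The rest of the pathway was described by lists of genes other than the members. The lists were written with earlier results of these data known, so the counts in them are descriptions. Over all 15275 genes 1.71% were at least 2-fold higher and 0.524% at least 2-fold lower. Of 12 genes of lipolysis with enough counts, among 20 listed, none reached 2-fold either way, and their median log2 ratio was 0.01. Highest were *Pcsk6* (ratio 1.60, 1.37 to 1.87) and *Pcsk5* (1.44, 1.27 to 1.64), proprotein convertases that cleave ANGPTL proteins and the lipase, and *Lipa* (1.18), the lysosomal acid lipase. Lowest were *Lipg*, the endothelial lipase related to *Lpl*, with 350 counts for VhlhKO and 547 for Ctrl (0.595, 0.518 to 0.681), and *Angptl8* (0.679, 0.474 to 0.968). The values of *Lipg* and *Lpl* thus went opposite ways in these libraries. *Lmf1*, the factor that matures the lipase, was at 1.04 (0.929 to 1.17), and *Apoc2*, its cofactor, had no counts, as had *Apoc1*, *Apoc3* and *Apoa5*; *Lmf1* was chosen after its values were seen.

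Of 16 lipoprotein receptors and their regulators, all with enough counts, 1 was at least 2-fold lower and none higher (median log2 ratio 0.05). *Sorl1*, a sorting receptor that binds lipoprotein lipase and apolipoprotein E, had 414 counts against 1109 for Ctrl (0.347, 0.309 to 0.389). The lysosomal *Scarb2* (1.59, 1.52 to 1.67), *Lrp2* or megalin (1.36) and *Lrp5* (1.29) were highest.

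Scavenger receptors other than *Cd36* and *Olr1* held the most genes past 2-fold of the 7 pathway lists. Among the 12 with enough counts 3 were higher by 2-fold or more, against 1.71% of all genes, and 1 was lower, against 0.524%. Their median log2 ratio was 0.21. *Colec12*, a scavenger receptor with a collagen-like domain, had 861 counts against 249 for Ctrl (3.21, 2.79 to 3.71). *Msr1*, the class A macrophage receptor, had 145 and 46 (2.93, 2.09 to 4.17), and *Marco*, of the same class, had 571 and 243 (2.18, 1.88 to 2.55). *Cd163*, the haemoglobin receptor of macrophages, had 5 and 38 (0.122, 0.0376 to 0.311), and *Scara5* had 37 and 46 (0.747).

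Among fatty acid transport genes *Slc27a2* alone passed 2-fold. Of 18 with enough counts 1 was at least 2-fold lower and none higher, with a median log2 ratio of -0.02. *Slc27a2*, a fatty acid transport protein and very-long-chain acyl-CoA synthetase of liver and proximal tubule, had 24 counts against 119 for Ctrl (0.187, 0.116 to 0.292). *Slc27a6* had 15 and 38 (0.367, 0.187 to 0.682), and with 0.5 CPM added its log2 ratio of -0.85 stayed within 2-fold. *Slc27a1*, chosen after its values were seen, had 1372 and 1647 (0.774, 0.720 to 0.832). *Mfsd2a* (1.17), *Acsl1* (1.12) and *Acsl4* (1.03) were highest, and *Fabp1*, *Fabp2*, *Fabp6* and *Fabp9* had no counts.

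None of 18 lipid droplet genes with enough counts was past 2-fold, and their median log2 ratio was -0.03. *Lipe*, the hormone-sensitive lipase, was at 1.17 (0.964 to 1.43), *Pnpla2*, the adipose triglyceride lipase, at 1.08 and its activator *Abhd5* at 1.07. The lowest were *G0s2*, an inhibitor of *Pnpla2* (0.680, 0.540 to 0.855), and *Dgat2*, which makes triglyceride (0.672, 0.510 to 0.883). *Plin2* held 64.9% of the summed TPM of the 5 perilipin genes in Ctrl and 63.4% in VhlhKO. None of 24 PPAR genes and oxidation targets was past 2-fold either (median 0.01). *Pdk4*, a PPAR target that spares glucose, had 2845 and 1763 counts and the highest log2 ratio of this list (0.58). Next were *Ehhadh* (log2 ratio 0.42, count ratio 1.37) and *Ppard* (log2 ratio 0.35, count ratio 1.28). By count ratio *Ppargc1a* (0.710) and *Ucp2* (0.613, 0.591 to 0.636) were lowest.

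*Vldlr*, *Plin2* and *Angptl4* are also known as hypoxia-inducible genes. Of 20 other such targets none was at least 2-fold higher, 1 was lower, and the median log2 ratio was -0.07. *Ndrg1* had 3406 counts against 6679 for Ctrl (0.474, 0.455 to 0.494) and *Pdk1* 434 and 502 (0.803). The highest were *Car9* (26 and 10 counts; 2.42, 1.13 to 5.61), *Pfkfb4* (1.42) and *Adm* (1.11). By count ratio *Angptl4*, at 1.76, lay above all of these except *Car9*, whose interval includes 1.76.

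**Figure D4:**
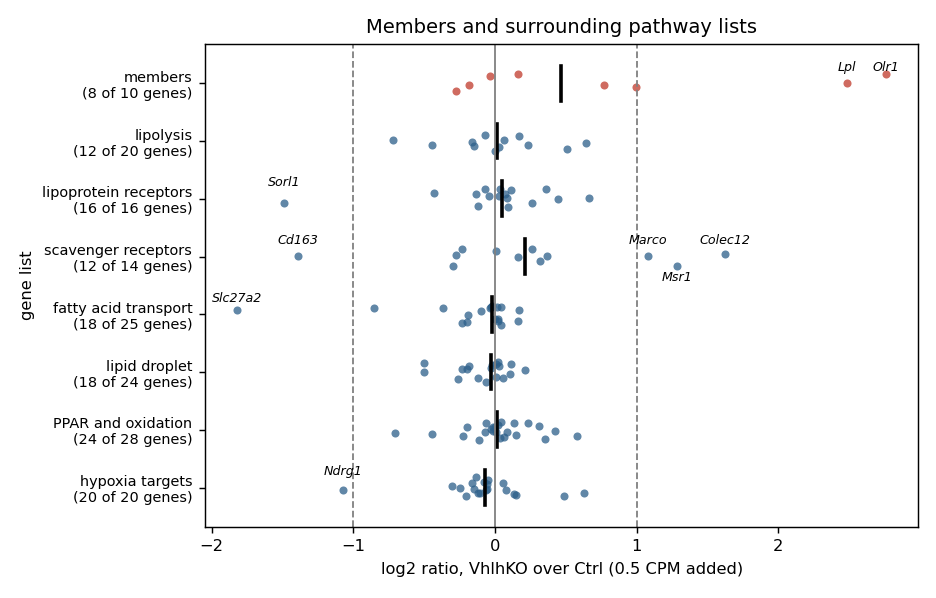
Log2 ratio of VhlhKO over Ctrl with 0.5 CPM added for the members (red) and for the genes of the pathway lists (blue) with at least 20 counts, 1 point per gene, with black bars at list medians and dashed lines at 2-fold. Most lists centre near 0, with medians from -0.07 to 0.21, and the named points are the genes past 2-fold.

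Transcripts of macrophages, in which *Lpl*, *Olr1*, *Fabp4*, *Cd36*, *Msr1* and *Marco* are known to be expressed, had a higher summed level in VhlhKO. With 0.5 CPM added 1 marker alone passed 2-fold, where 1.71% of all genes were at least 2-fold higher. Of 16 macrophage and monocyte markers, 15 had enough counts, 1 was at least 2-fold higher, 13 had a log2 ratio above 0, and the median was 0.75. Their summed level was 156 CPM in VhlhKO and 86.5 CPM in Ctrl, a ratio of 1.80. *Lyz2*, with 2007 and 522 counts (3.57, 3.24 to 3.94), made up much of it. Without *Lyz2* the sums were 97.2 and 70.2 CPM, a ratio of 1.38. No marker of the list was at 0. *Ptprc*, which encodes CD45, had 24 and 12 counts, *Csf1r* had 279 and 307, and *Cd14* had 665 and 687. Other markers of the list were higher with intervals above 1. Among them were *C1qa* with 389 and 178 counts (2.03, 1.70 to 2.44), *Mpeg1* with 615 and 322 (1.77, 1.55 to 2.04) and *Tyrobp* with 57 and 20 (2.65, 1.57 to 4.65). *Cd163*, listed with the scavenger receptors, was lower, at 5 and 38. The part of macrophage transcripts in the ratios of *Lpl* (5.89) and *Olr1* (10.2) was not tested.

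Adipocytes also express *Lpl* and *Fabp4*, and most of the 12 adipocyte markers listed had few or no counts. *Lep*, *Cfd* and *Lgals12* had no counts, *Adipoq* had 2 and 1, *Plin1* had 0 and 1 and *Cidec* had 0 and 1. Of the 12 markers 3 had enough counts. The most abundant was *Lipe*, with 236 and 187 counts, and *Adrb3* had 23 and 23. *Pck1*, which proximal tubule also expresses, was lower, with 8 and 43 counts (0.173, 0.0702 to 0.372). The summed level was 8.50 CPM in VhlhKO and 8.68 CPM in Ctrl.

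Some fibroblast and pericyte markers were higher in VhlhKO, and fibroblasts can express *Lpl*. Of 14, 11 had enough counts, and their median log2 ratio was 1.34. None was at least 2-fold lower, against 0.524% of all genes, and 6 were at least 2-fold higher, against 1.71%. The higher ones were *Col1a2* (3.70), *Col3a1* (3.60), *Col1a1* (3.28), *Mfap5* (51 and 4 counts, 11.8, 4.35 to 45.1), *Pdgfra* (57 and 9 counts, 5.88, 2.89 to 13.5) and *Des* (2.53). The list summed to 3895 CPM in VhlhKO and 3028 CPM in Ctrl, most of it *Acta2*, at 2117 and 2167 CPM (0.977). The pericyte marker *Cspg4* had 8012 and 8957 counts (0.831, 0.806 to 0.857). *Pdgfrb* and *Rgs5* of the same list went the other way. They had 3773 and 2357 counts (1.49, 1.41 to 1.57) and 312 and 205 counts (1.41, 1.18 to 1.69). No marker of the list was at 0 in both libraries, and the part of these cells in the *Lpl* difference was not tested.

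The other marker lists were less uniform. Their counts past 2-fold stand beside the same shares of all genes, 1.71% higher and 0.524% lower. Of 11 proximal tubule genes that could be counted, *Slc34a1*, *Fbp1*, *Slc5a2*, *Pck1* and *Slc5a12* were lower by 2-fold or more, and the higher ones were *Cyp4b1* (3.09) and *Aqp1* (3.83), with a median log2 ratio of -0.89. *Slc22a6* had no counts. *Lrp2* was the most abundant of this list, whose sums were 67.2 and 55.6 CPM. *Slc27a2* was lower beside these genes, and their part in it was not tested. Of 4 lymphatic genes with enough counts *Lyve1* (11.9, 6.26 to 25.4) was past 2-fold, and the 8 listed summed to 102 and 85.0 CPM. None of 9 endothelial genes was past 2-fold (110 and 106 CPM). Of 9 podocyte and parietal genes *Podxl* was (3.90, 3.67 to 4.15), in a list led by *Akap12* (6901 and 7336 CPM summed). Of 6 mesothelial genes *Msln* was (2.59, 2.19 to 3.08), in a list led by *Wt1* (177 and 147 CPM summed, *Lrrn4* at 0).

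**Figure D5:**
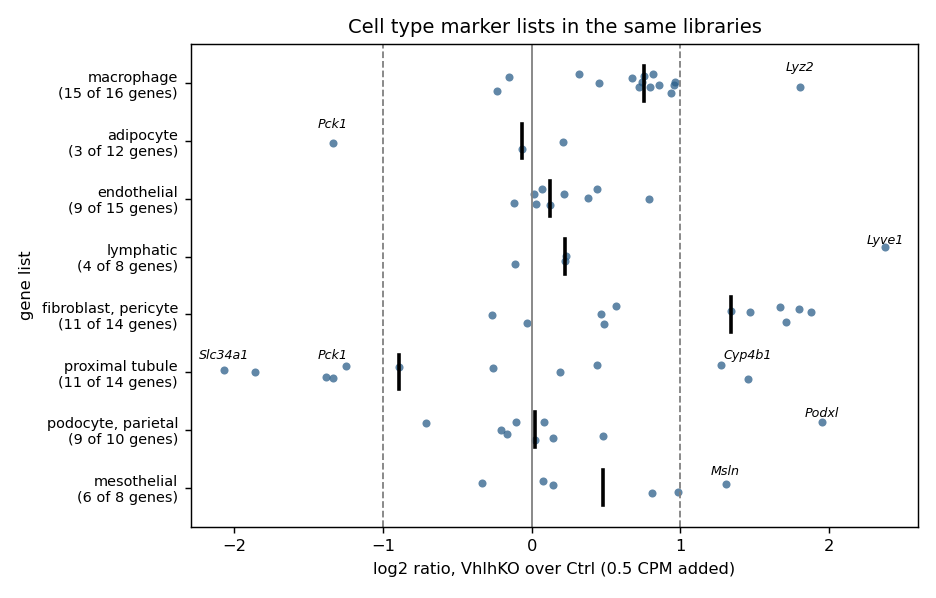
Log2 ratio of VhlhKO over Ctrl with 0.5 CPM added for cell type markers with at least 20 counts in the same libraries, 1 point per gene, with black bars at list medians and dashed lines at 2-fold. The macrophage and fibroblast lists lie mostly to the right, with medians of 0.75 and 1.34, the proximal tubule list is spread to both sides, and only 3 of 12 adipocyte markers could be drawn.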

How the data were processed

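Bulk RNA-Seq of sorted Pdpn+ cells was available as 1 pooled library per genotype. The authors' deposited table gives raw counts per gene, not normalized, and TPM, in which counts per gene length are scaled to the same sum in each library. For alignment and counting the submitters' processing notes list STAR, Subread, featureCounts, cutadapt, DESeq2, bcl2fastq, MultiQC and FastQC, with no version, and GRCm38 (mm10) as build. The table's own fold changes and p-values were not used. Annotation release and counting options: not given in the sources used here.

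All genes were scaled together by TMM in edgeR 4.0.16 under R 4.3.3, with a factor of 1.003 for Ctrl and 0.997 for VhlhKO. An amount of 0.5 CPM, equal to 16.0 counts in Ctrl and 17.2 in VhlhKO, was added for log2 ratios. The rule of 2-fold and 20 counts stands in place of a test. The calculation was tested on simulated data. Intervals came from scipy 1.17.1, and tables from pandas 2.3.3 and numpy 2.4.6 in Python 3.11.15. GENCODE M21 for GRCm38 gave coordinates, transcripts and lengths, and 55230 gene IDs matched it. Promoter windows are from RefSeq (GRCm38.p6). A symbol on several IDs was read from the ID with the most counts.

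The members and lists were chosen with earlier results of these data known. Named genes are the members, the 3 highest and 2 lowest log2 ratios of each pathway list, any list gene past 2-fold, the most abundant marker and those without counts in each cell type list, and the nearest genes to *Lpl* and *Olr1*; others were chosen after their values were seen. Some genes that this rule names are not reported here. Alternatives were other scalings (total counts, DESeq2 1.42.0 size factors, TMM without proximal tubule genes), the authors' TPM, other added amounts, count minimums and fold sizes. A planned comparison of FABP proteins was not run, as no protein sequences were used here.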

Additional observations from a re-analysis of the deposited data

How the results depend on the processing

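*Lpl* and *Olr1* were at least 2-fold higher in VhlhKO under all 10 alternatives, and none of the 10 genes was at least 2-fold lower under any. *Fabp4*, at a log2 ratio of 0.995, passed as well with DESeq2 size factors and with 0.05 CPM added (3 genes), and at 1.5-fold *Angptl4* joined them (4 genes). Over the 6 alternatives of scaling, unit and added amount the log2 ratio ranged from 2.01 to 2.55 for *Lpl*, from 1.22 to 3.27 for *Olr1* and from 0.30 to 1.32 for *Fabp4*, and no member changed sign. Over all genes, 435 were higher and 151 lower with 0.05 CPM added, 66 and 18 with 5 CPM added, 725 and 278 at 1.5-fold, and 63 and 25 at 3-fold, against 261 and 80; with a minimum of 100 counts 46 were lower. Fewer genes pass with more CPM added because the ratio of low genes shrinks, and fewer with a higher minimum because fewer genes enter. No scaling moved the median log2 ratio of all genes by 0.1. No paired analysis was possible because there is 1 library per genotype, and for the same reason no library could be left out. Counting limits *Cd36*, *Gpihbp1* and *Fabp3*; the spread between pools is unknown for every gene.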
